A study of Mus musculus with 85 samples.

Results

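The genes described here are 150 transcripts of the mouse preimplantation embryo whose level was high around the 4-cell to 8-cell stage and low before and after it. They were chosen from the measured values. Of 37368 genes in the table, 5708 had a mean of at least 20 CPM (a gene's read count scaled to a fixed library total) over the late 4-cell, early 8-cell and late 8-cell libraries together. These were ranked by log2 of that mean plus 1, minus log2 of the higher of the mid 2-cell mean and the standard blastocyst mean plus 1. Genes of the ribosomal, mitochondrial ribosomal, NADH dehydrogenase, proteasome and mitochondrial genome symbol families were dropped, and the top 150 were kept. The score of Map7d2, the highest, was 8.33. Urm1 and Entpd3 were just inside the limit with scores of 3.69 and 3.69, and Hsf2 and Gm37201 were just outside it with 3.68 and 3.67. The mid 2-cell, late 4-cell, early 8-cell, late 8-cell and standard blastocyst values therefore chose the genes and are given as a description, with no test.

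All 85 libraries came from wild type B6C3F1/J embryos and were made with Smart-seq2, a full-length protocol for small amounts of RNA. How many embryos went into a library is not given in the sources used here. Ages are hours after the injection of hCG (human chorionic gonadotropin, the hormone that triggers ovulation). Standard medium was KSOM, in which L-lactate was at 5 mM and both pyruvate and glucose were at 0.2 mM. Its groups were early 2-cell (34 h, 3 libraries), mid 2-cell (42 h, 4), late 2-cell (48 h, 3), very late 2-cell (52 h, 3), early 4-cell (55 h, 4), late 4-cell (62 h, 4), early 8-cell (66 h, 3), late 8-cell (74 h, 2), morula (78 h, 6), early 16-cell (80 h, 5), early 32-cell (90 h, 4) and blastocyst (114 h, 4). Embryos without pyruvate were 2-cell embryos at 42 h (4 libraries), 48 h (5), 52 h (4) and 55 h (4), morulae at 78 h (5) and blastocysts at 114 h (5). Another 4 libraries were morulae without pyruvate that received 20 nM of KY-PYR-9, which the labels call a MYC inhibitor. Embryos without lactate were morulae at 78 h (5 libraries) and blastocysts at 114 h (4). Nothing says that the libraries of a group came from separate litters or cultures, so the p-values speak only of how these libraries varied.

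The mouse embryo starts transcription of its own genome in earnest at the 2-cell stage, while RNA inherited from the oocyte is degraded. A first burst of 2-cell transcripts is short, and a second programme of ribosome, metabolism and cell biology genes follows through the 4-cell and 8-cell stages. The embryo then compacts into a morula and separates into trophectoderm and inner cell mass in the blastocyst. Early embryos use pyruvate as the main fuel, and the use of glucose grows towards the blastocyst.

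Stage markers followed the labels. Zscan4d, a gene of the 2-cell burst, had a mean of 637 CPM in mid 2-cell embryos and 1.44 CPM in early 8-cell embryos. Btg4, an oocyte gene, had a mean of 11097 CPM in mid 2-cell embryos. Krt18, a trophectoderm keratin, had a mean of 10179 CPM in standard blastocysts, 60.8 CPM in standard morulae and 5.75 CPM in late 4-cell embryos. Depth, read from the smallest step between values, was 10.2 to 42.6 M reads a library, and between 11334 and 17418 genes were above 1 CPM. In the shallowest library, counting alone gives a relative SD of 7.0% at 20 CPM. In pooled embryos, fewer cells with a transcript and less of it per cell cannot be told apart.

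Of the 150 genes, 133 were protein coding, 8 were lincRNAs, 6 were processed pseudogenes, 1 was an antisense RNA and 1 a ribozyme, and 1 entry had no match in the annotation. Chromosome 11 held 23 of them, including the neighbours Fkbp10, Nt5c3b and Klhl10, and its share of all genes was not computed. The median exonic length was 3688 bases, against 3911 for the genes at 20 CPM or more, and the median span was 18.8 kb in both sets. Some values may mix neighbours, since counting by strand is not stated. Fkbp10 overlaps Nt5c3b by 2503 bases and Heatr1 overlaps Lgals8 by 874 bases, and both partners of each pair are among the 150. Impdh2, Cbx3, G530012D18Rik and the pseudogene entries have near-identical copies, and their values are uncertain for that reason.

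The sequences just before the start are shown for 5 of the genes, as examples of patterns described below. These are the rise from the late 2-cell stage on (Sox15, Frat1, Tma16) and differences between groups in different media (Pdp2, Acsl4). Each sequence is the 250 bases before the start in RefSeq (GRCm38.p6), written from 5′ to 3′ on the strand of the gene. Capitals mark matches to any of 9 motifs searched on both strands, and a position is that of the first base of a match, counted back from the start. Tma16 lies on the minus strand (chr8:66486531-66486780) and has GC boxes at -82 and -12. Pdp2 lies on the plus strand (chr8:104591222-104591471) and has an E-box at -219, a GC box at -135, CCAAT boxes at -101 and -55 and a TEAD motif at -48. Sox15 lies on the plus strand (chr11:69654787-69655036) and has no match. Frat1 lies on the plus strand (chr19:41829720-41829969) and has CCAAT boxes at -222 and -185 with a TEAD motif at -191. Acsl4 lies on the minus strand (chrX:142390536-142390785) and has a TFAP2 motif at -77 and GC boxes at -22 and -18 that overlap.
Sox15: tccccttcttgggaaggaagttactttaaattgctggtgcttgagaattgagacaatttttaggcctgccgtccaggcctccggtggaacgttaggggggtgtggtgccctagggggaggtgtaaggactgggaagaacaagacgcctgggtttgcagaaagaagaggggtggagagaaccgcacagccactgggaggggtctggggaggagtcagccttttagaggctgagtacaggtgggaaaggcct
Frat1: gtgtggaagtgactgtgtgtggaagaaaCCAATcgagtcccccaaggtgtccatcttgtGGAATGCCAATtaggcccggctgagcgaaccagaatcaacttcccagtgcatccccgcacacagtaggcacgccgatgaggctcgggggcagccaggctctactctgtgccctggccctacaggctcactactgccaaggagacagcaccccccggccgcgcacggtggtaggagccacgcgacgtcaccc
Tma16: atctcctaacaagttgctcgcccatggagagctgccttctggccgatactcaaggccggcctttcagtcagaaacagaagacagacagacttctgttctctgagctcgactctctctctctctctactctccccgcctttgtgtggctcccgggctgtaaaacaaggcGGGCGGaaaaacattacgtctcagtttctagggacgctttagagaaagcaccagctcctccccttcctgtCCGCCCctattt
Pdp2: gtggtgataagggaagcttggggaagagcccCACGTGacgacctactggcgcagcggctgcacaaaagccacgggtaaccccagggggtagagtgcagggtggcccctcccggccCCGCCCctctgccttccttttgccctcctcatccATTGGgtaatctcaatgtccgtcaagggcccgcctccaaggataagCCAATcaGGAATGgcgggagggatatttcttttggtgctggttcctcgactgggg
Acsl4: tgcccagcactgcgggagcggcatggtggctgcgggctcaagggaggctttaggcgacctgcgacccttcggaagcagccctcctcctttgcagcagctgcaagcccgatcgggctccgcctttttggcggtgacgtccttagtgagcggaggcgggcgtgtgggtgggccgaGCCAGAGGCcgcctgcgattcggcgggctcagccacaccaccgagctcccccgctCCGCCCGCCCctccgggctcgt

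RefSeq promoters were found for 107 of the 150 genes (132 promoters, some genes having several starts). The GC box (GGGCGG) was in 50.8% of them, against 60.5% of the 4887 promoters of genes at 20 CPM or more and 32.7% of all 32851 promoters. The E-box (CACGTG) was in 12.9%, 9.54% and 6.02%, the CCAAT box (CCAAT) in 34.1%, 36.1% and 33.8%, and the ETS motif (CCGGAAG) in 14.4%, 18.6% and 6.91%. The TFAP2 motif (GCCNNNGGC) was in 15.2%, 21.0% and 13.7%, the TEAD motif (CATTCC) in 6.82%, 9.68% and 12.6%, and the TATA box (TATAAA) in 5.30%, 5.93% and 12.4%. The nuclear receptor motif AAGGTCA was in 0.758%, 2.76% and 4.08%. The octamer (ATGCAAAT) was in 0 of the 132, in 0.737% of the promoters of genes at 20 CPM or more and in 1.6% of all. These shares describe letters in a window and say nothing of binding.

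Together the 150 genes made up 0.0523% to 0.0700% of the CPM of an early 2-cell library, 2.14% to 2.33% of a very late 2-cell library and 5.66% to 6.64% of an early 8-cell library. The share then fell back to 3.05% to 4.35% in standard morulae, 1.69% to 1.77% in early 16-cell embryos and 0.135% to 0.283% in standard blastocysts. The median gene followed the same course. Its group mean was 0.744 CPM at 34 h, 3.51 at 42 h, 24.1 at 48 h, 63.2 at 52 h and 94.9 at 55 h. It was highest at 66 h, with 121 CPM, and reached 73.8 CPM at 78 h, 27.9 at 80 h, 14.4 at 90 h and 3.89 at 114 h.

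**Figure D1:**
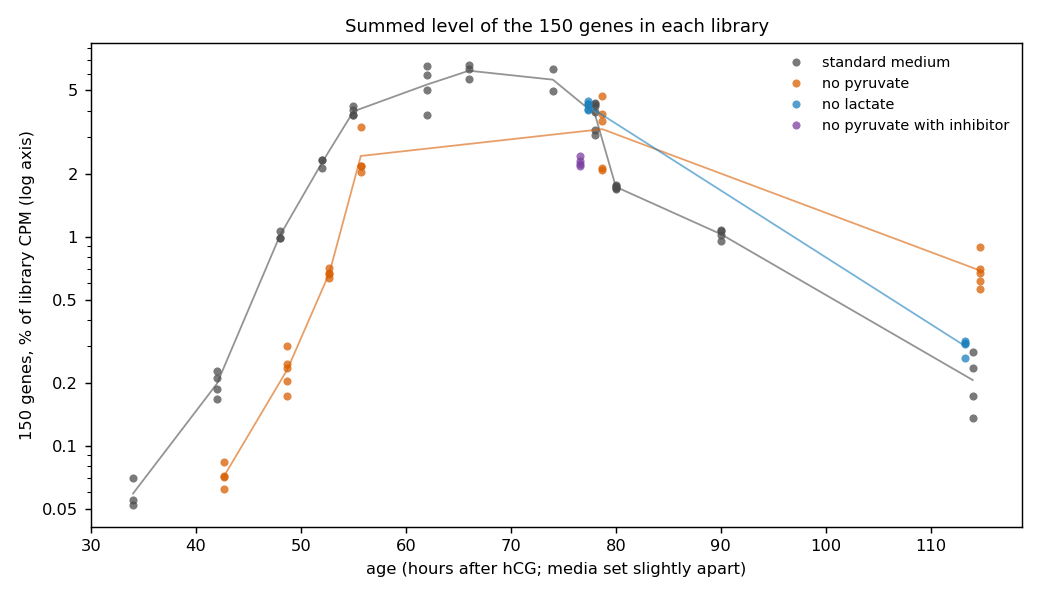
Summed level of the 150 genes as a percent of each library's CPM (log axis) against hours after hCG. Each point is a library, coloured by medium, and lines join the group means. Standard libraries reach 5.66% to 6.64% at 66 h. The libraries without pyruvate lie below the standard ones up to 55 h and above them at 114 h, at 0.565% to 0.892%.

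The highest standard mean was in late 4-cell embryos for 34 genes, in early 8-cell embryos for 47 and in late 8-cell embryos for 40, and in early 4-cell embryos for another 17. The label of the set held for these 138 genes and went against the other 12. Klhl10, Tor1b, Urm1 and 2900097C17Rik were highest in very late 2-cell embryos. Actn2, S1pr2 and Mboat1 were highest in standard morulae. Gulo, Impdh2, Impdh2-ps, Apobec3 and Gm5745 were highest in early 16-cell embryos. They met the rule because it compares only with mid 2-cell embryos and blastocysts.

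**Figure D2:**
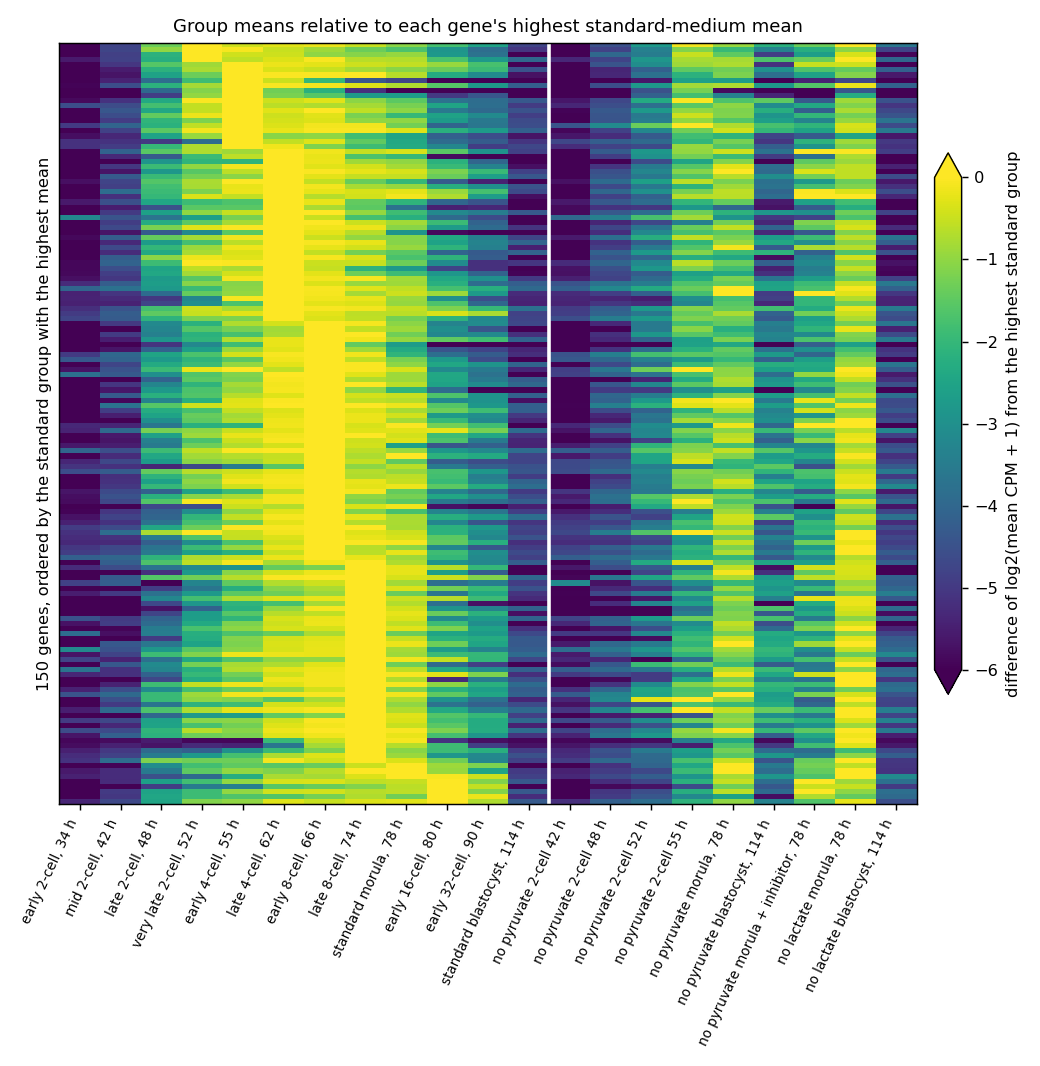
Group means of the 150 genes (rows) in the 12 standard groups (left of the white line) and the 9 other groups (right), as the difference of log2(mean CPM + 1) from the gene's highest standard group. Yellow marks the highest level. The early 4-cell to late 8-cell columns hold the highest standard mean of 138 genes, and a few rows at the bottom are highest at 80 h.

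The steps between standard groups that the rule did not use show between which groups the genes moved. The rule fixes that the genes are higher after 42 h and lower by 114 h, so the tests below only show between which groups the levels differed. In very late 2-cell against late 2-cell embryos (52 h against 48 h), 131 of the 150 genes rose and 0 fell (limma, Benjamini-Hochberg adjusted p below 0.05), with a median log2 change of 1.24. In all genes of that fit 16.4% were higher and 17.6% lower, with a median of 0.00. In early 4-cell against very late 2-cell embryos (55 h against 52 h), 73 rose and 0 fell, with a median of 0.62. Of all genes 12.4% were higher and 31.5% lower, with a median of -0.21. Both steps were passed by 63 genes, either by 141, and neither by 9 (Gm26722, Gnl3l, Rpph1, Tmem229b, Nub1, Gm5745, Fbxl20, Entpd7 and Entpd3).

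The tested falls were as follows. In early 16-cell embryos against standard morulae (80 h against 78 h), 131 genes fell and 4 rose, with a median log2 change of -1.33. Of all genes 27.7% were lower and 9.83% higher, with a median of -0.13. The 4 that rose were Gulo, Impdh2, Impdh2-ps and Gm5745. In early 32-cell against early 16-cell embryos (90 h against 80 h), 91 fell and 2 rose (2700016F22Rik and Rpgrip1), with a median of -0.77. Of all genes 12.2% were lower and 8.49% higher. Both falls were passed by 78 genes and either by 144. The 100 highest genes took 24.2% to 34.8% of a standard morula library and 32.0% to 33.7% of an early 16-cell library, and the part of this difference in the result was not tested. Standard morulae 1 and 2 stood at 34.8% and 30.2%. Without these 2 libraries 138 genes fell and 3 rose at 80 h. The slope of log2 values on log2 gene length was -0.126 to -0.101 in early 16-cell libraries and -0.0815 to -0.00238 in standard morulae. A change between these hours and a difference between the 2 sets of libraries cannot be told apart.

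Among the transcription factors, Sox15, a SOX family factor, had 41.4 to 49.1 CPM in late 2-cell libraries, 223, 238 and 276 CPM in very late 2-cell libraries, and 652, 830, 897 and 810 CPM in early 4-cell libraries. No libraries of these 3 groups overlapped. The log2 change was 2.41 ± 0.22 (SE; adjusted p = 2.6e-11) at 52 h and 1.69 ± 0.20 (adjusted p = 7.3e-09) at 55 h. Late 8-cell libraries had 1353 and 1984 CPM, and standard morulae 1013 to 1754 CPM. Early 16-cell libraries had 241 to 293 CPM, all below every morula, a log2 change of -2.38 ± 0.16 (adjusted p = 1.3e-14). Early 32-cell libraries were lower again at 71.7 to 108 CPM (-1.58 ± 0.18, adjusted p = 8.1e-09).

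Foxa1, a pioneer factor known from endoderm and liver, rose at both steps. Late 2-cell libraries had 0.352 to 0.540 CPM and very late 2-cell libraries 5.35, 1.24 and 5.24 CPM (1.66 ± 0.30, adjusted p = 2.7e-05). The early 4-cell libraries had 39.9, 52.5, 28.7 and 48.7 CPM, a log2 change of 3.25 ± 0.28 (adjusted p = 1.7e-12). Klf2, a Kruppel-like factor of naive pluripotency, had 7.70, 6.58 and 5.99 CPM at 48 h and 22.4, 20.6 and 23.3 CPM at 52 h (1.58 ± 0.30, adjusted p = 6.1e-05). Hand1, a bHLH factor needed in trophoblast giant cells, had 1.72, 2.91 and 2.06 CPM at 48 h and 14.5, 14.7 and 22.1 CPM at 52 h (2.48 ± 0.27, adjusted p = 3.3e-09). At 90 h its libraries (4.03 to 7.40 CPM) lay below all early 16-cell libraries (18.6 to 38.5 CPM), with a change of -1.84 ± 0.23 (adjusted p = 4.9e-08). In standard blastocysts Hand1 was at 0.106 to 0.458 CPM. Cux2, a cut homeobox factor, had 111 to 560 CPM in standard morulae and 27.1 to 43.0 CPM in early 16-cell libraries (-2.98 ± 0.28, adjusted p = 2.1e-11). Of the 11 transcription factors, 10 rose at 52 h, 4 at 55 h, and 10 fell at 80 h.

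Frat1, which binds GSK3 and activates Wnt signalling, had 11.4, 4.97 and 8.44 CPM in late 2-cell libraries and 130, 111 and 172 CPM in very late 2-cell libraries. The log2 change of 3.95 ± 0.47 (adjusted p = 1.5e-08) was measured between libraries that did not overlap. Its early 4-cell libraries held 254, 375, 274 and 185 CPM and its late 8-cell libraries 34.9 and 45.5 CPM. The step to early 4-cell did not pass the test (0.95 ± 0.44, adjusted p = 0.075), though it did when only the compared groups were fitted (adjusted p = 0.0048). Socs3, an inhibitor of JAK-STAT signalling, had 16.4, 19.1 and 24.9 CPM at 48 h and 71.0, 90.2 and 68.4 CPM at 52 h (1.88 ± 0.32, adjusted p = 1.1e-05). It fell to 0.307 to 2.80 CPM in early 32-cell libraries from 6.08 to 10.8 CPM in early 16-cell libraries (-2.18 ± 0.26, adjusted p = 2.9e-08). Igf2r, an imprinted receptor that clears IGF2, had 113 to 299 CPM in standard morulae and fell at 80 h (-1.08 ± 0.20, adjusted p = 1.7e-05; -0.72 with the trend of values with gene length removed). All 16 signalling genes rose at 52 h and all 16 fell at 80 h.

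Genes of ribosome and RNA processing were led by Tma16, a factor of large-subunit maturation. Very late 2-cell libraries had 196, 173 and 202 CPM and early 4-cell libraries 414, 566, 432 and 527 CPM, without overlap (1.33 ± 0.20, adjusted p = 5.8e-07). Standard blastocysts had 5.04 to 10.8 CPM. Impact, an imprinted inhibitor of the GCN2 kinase, had 141, 87.5 and 128 CPM at 52 h and 434, 460, 396 and 501 CPM at 55 h (1.93 ± 0.36, adjusted p = 2.5e-05). Of the 17 genes of this group 12 rose at 52 h, 9 rose at 55 h, 13 fell at 80 h and 11 fell at 90 h. In the whole set these counts were 131, 73, 131 and 91 of 150. In the wider list of 30 ribosome biogenesis genes, which shares Ddx21 and Heatr1 with the 150, 9 rose and 0 fell at 52 h, 5 rose and 4 fell at 55 h, and 0 rose and 17 fell at 90 h.

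Nucleotide metabolism was represented by Cad, whose product starts pyrimidine synthesis, and by Impdh1 and Impdh2, which make guanine nucleotides. Cad had 38.3, 52.0 and 47.2 CPM at 52 h and 71.7, 86.1, 74.7 and 76.2 CPM at 55 h (0.75 ± 0.20, adjusted p = 0.0026; 1.12 with the length trend removed). Impdh2 took another course from most of the set. It had 251 to 420 CPM in standard morulae and 506 to 565 CPM in early 16-cell libraries, all above every morula (0.61 ± 0.11, adjusted p = 1.3e-05; 0.97 with median-ratio scaling, which rescales each library to the median ratio of its genes). It fell at 90 h to 205 to 274 CPM (-1.13 ± 0.12, adjusted p = 2.3e-09). In the list of 23 measured nucleotide synthesis genes, 9 rose and 1 fell at 52 h, and 8 rose and 1 fell at 55 h.

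Among the other metabolic genes, Pdp2, a phosphatase that activates pyruvate dehydrogenase, had 524, 327 and 409 CPM at 48 h, 1449, 1167 and 1396 CPM at 52 h (1.69 ± 0.36, adjusted p = 0.00033) and 4680, 3994 and 3537 CPM in early 8-cell libraries. It had 1209 to 3860 CPM in standard morulae and fell at 80 h (-2.06 ± 0.27, adjusted p = 3.9e-08). Acsl4, which activates arachidonate for lipid synthesis, had 119, 74.2 and 115 CPM at 48 h and 195, 194 and 272 CPM at 52 h (1.10 ± 0.26, adjusted p = 0.00093). It fell at 80 h (-1.76 ± 0.19, adjusted p = 9.6e-10) and at 90 h (-2.19 ± 0.21, adjusted p = 2.6e-10). Hk1, a hexokinase, was low, with 2.85 to 5.53 CPM at 52 h and 24.4 to 38.6 CPM in early 8-cell libraries.

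Gulo, the last enzyme of vitamin C synthesis, peaked late. It had 236, 250, 498, 527, 615 and 719 CPM in standard morulae and 748, 789, 763, 620 and 752 CPM in early 16-cell libraries (0.75 ± 0.20, adjusted p = 0.0021). The call was lost without standard morulae 1 and 2, which hold the 2 lowest values (0.33, adjusted p = 0.092).

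In the cytoskeleton and membrane traffic groups, Map7d2, a microtubule-associated protein, had 52.9, 27.8 and 35.04 CPM at 48 h and 151, 112 and 180 CPM at 52 h (1.93 ± 0.36, adjusted p = 5.9e-05). It dropped between 78 h, with 70.9 to 312 CPM, and 80 h, with 12.6 to 26.0 CPM (-3.24 ± 0.27, adjusted p = 1.5e-12). Plek2, which acts on actin, had 6.87, 5.68 and 6.35 CPM at 52 h and 22.8, 36.1, 25.9 and 31.0 CPM at 55 h (2.02 ± 0.26, adjusted p = 3.1e-08). Snf8, a subunit of the ESCRT-II sorting complex, had 56.7 to 82.7 CPM at 78 h and 7.32 to 15.5 CPM at 80 h (-2.59 ± 0.20, adjusted p = 3.4e-13). Of the 21 genes of organelles, membrane traffic and protein turnover, 18 rose at 52 h, 18 fell at 80 h and 15 fell at 90 h.

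**Figure D3:**
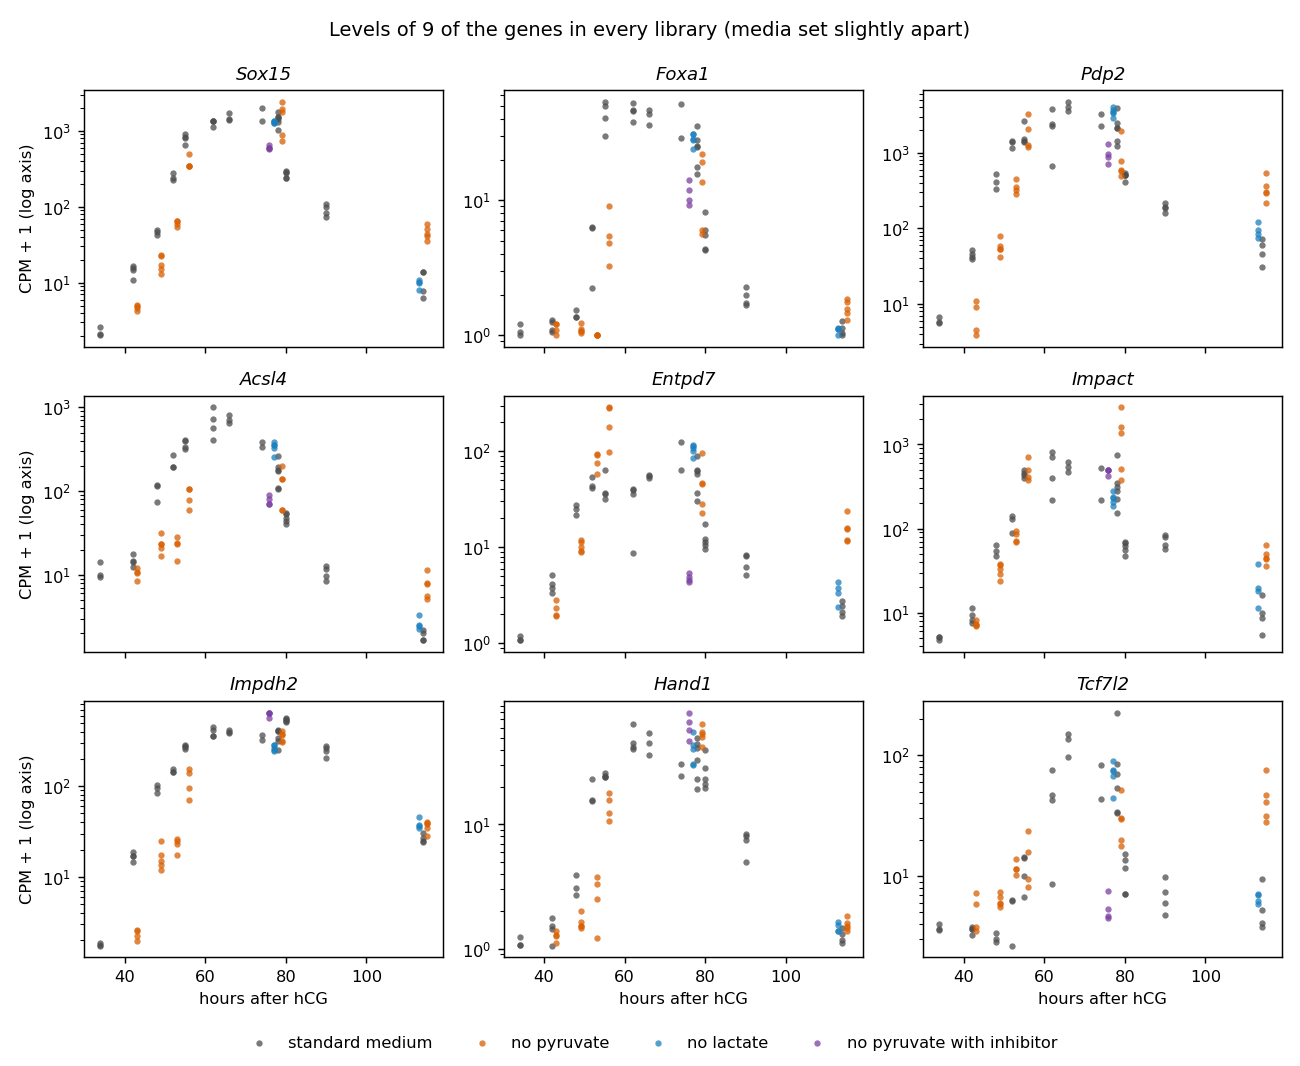
Levels of 9 of the genes (CPM + 1, log axis) in every library against hours after hCG, coloured by medium. Foxa1 in 2-cell embryos without pyruvate at 55 h (2.27 to 8.06 CPM) lies below the early 4-cell libraries (28.7 to 52.5 CPM), and Entpd7 lies above them.

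At 55 h, embryos in standard medium were early 4-cell and embryos without pyruvate were still labelled 2-cell. Against the early 4-cell libraries of the same hour, 103 of the 149 genes that could be tested were lower in the 2-cell libraries without pyruvate and 4 were higher, with a median log2 difference of -0.94. Of all 20737 genes 19.5% were lower and 37.7% higher, with a median of 0.27. The rule chose genes low at mid 2-cell and high from late 4-cell on. A lower level in 2-cell than in 4-cell embryos therefore follows in part from the choice of the genes. Against very late 2-cell embryos (52 h), which match in cell number but not in hour, 42 were lower and 15 higher, with a median of -0.32. The lower count was 27 with a pseudocount of 0.1. Of all genes 16.1% were lower and 18.4% higher, with a median of 0.00. Both comparisons use the same 4 libraries without pyruvate. The 150 genes made up 2.03% to 3.33% of those libraries, 2.14% to 2.33% of very late 2-cell libraries and 3.82% to 4.22% of early 4-cell libraries. Zscan4d had a mean of 149 CPM in the libraries without pyruvate, 38.5 CPM in very late 2-cell libraries and 17.8 CPM in early 4-cell libraries. The very late 2-cell group thus matched the embryos without pyruvate in cell number but not in this gene of the 2-cell burst.

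Foxa1 had 8.06, 3.81, 4.41 and 2.27 CPM without pyruvate, below every early 4-cell library, a log2 difference of -3.01 ± 0.26 (adjusted p = 6.0e-12). Inka1, an inhibitor of the PAK4 kinase, had 101, 75.1, 24.97 and 50.3 CPM without pyruvate and 347, 369, 465 and 332 CPM in early 4-cell libraries (-2.73 ± 0.41, adjusted p = 8.9e-07). Tma16 had 125, 144, 65.2 and 102 CPM without pyruvate (-2.19 ± 0.22 against early 4-cell, adjusted p = 4.3e-10). Sox15 had 499, 348, 348 and 348 CPM without pyruvate. These values lay between those of the standard groups, lower than early 4-cell (-1.05 ± 0.17, adjusted p = 2.9e-06) and higher than very late 2-cell (0.64 ± 0.18, adjusted p = 0.0071).

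Several genes were below even the very late 2-cell level. Acsl4 had 105, 106, 77.3 and 57.9 CPM without pyruvate, against 321 to 408 CPM in early 4-cell libraries (-2.10 ± 0.21, adjusted p = 3.9e-10) and 194 to 272 CPM in very late 2-cell libraries (-1.36 ± 0.23, adjusted p = 2.5e-05). Arg1, the arginase of the urea cycle, had 10.4, 26.7, 20.4 and 7.68 CPM without pyruvate and 62.0 to 83.5 CPM in very late 2-cell libraries (-2.25 ± 0.36, adjusted p = 1.2e-05). It also lay below early 4-cell libraries (-2.11 ± 0.34, adjusted p = 2.4e-06). Nr1h3, an oxysterol receptor, had 5.01 to 15.0 CPM without pyruvate and 34.2 to 39.4 CPM in very late 2-cell libraries (-1.86 ± 0.29, adjusted p = 7.4e-06). Plbd1, a phospholipase B-like protein, had 6.17 to 11.1 CPM without pyruvate and 32.1 to 68.6 CPM in early 4-cell libraries (-2.47 ± 0.29, adjusted p = 7.0e-09). No library of these 4 genes overlapped between the groups compared, which the rule that named Arg1, Nr1h3 and Plbd1 required.

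A few genes were higher than in one or both standard groups. Entpd7, a nucleoside triphosphatase, had 284, 97.0, 286 and 180 CPM without pyruvate, against 31.0, 62.5, 35.2 and 36.1 CPM in early 4-cell libraries and 53.2, 40.2 and 42.4 CPM in very late 2-cell libraries. The log2 differences were 2.26 ± 0.25 (adjusted p = 1.4e-09) and 2.09 ± 0.26 (adjusted p = 2.5e-07). Impact was higher than in very late 2-cell libraries, with 373 to 705 CPM (2.03 ± 0.19, adjusted p = 1.3e-09), and its difference from early 4-cell libraries did not pass the test (0.10 ± 0.18, adjusted p = 0.65; 0.47, adjusted p = 0.040, with quantile scaling). Txnl4b and Rarg were also higher than in early 4-cell embryos.

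By role, 13 of 16 signalling genes, 13 of 17 ribosome and RNA genes, 7 of 9 nucleotide genes, 15 of 21 organelle and traffic genes and 5 of 11 transcription factors were lower than in early 4-cell embryos. Most of the set was lower here, as given above, and the role groups were not tested against it. In the wider lists, 16 of 23 nucleotide synthesis genes were lower and 3 higher, and 14 of 30 ribosome biogenesis genes were lower and 1 higher. Of 16 tested genes of pyruvate and lactate handling 3 were lower and 5 higher. The summed level of the blood marker list was 58.8 to 88.4 CPM without pyruvate, 53.7 to 72.6 CPM in very late 2-cell and 7.09 to 24.6 CPM in early 4-cell libraries. It came from Hba-a1 and Hba-a2, while the defining marker Alas2 stayed at or below 0.763 CPM in every library. Their part in the result was not tested. Cumulus cell markers summed to 2.89 to 8.32 CPM without pyruvate and 0.311 to 2.45 CPM in early 4-cell libraries, and their part was not tested either.

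**Figure D4:**
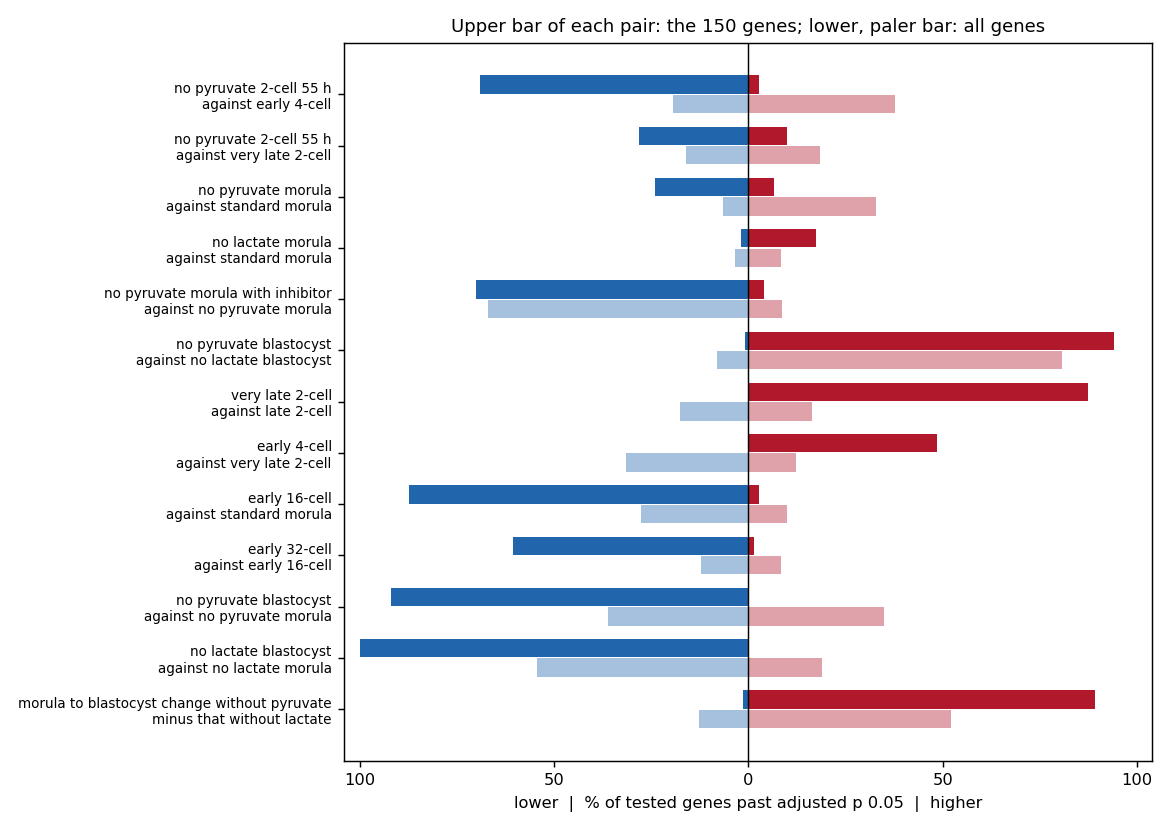
Percent of tested genes that passed adjusted p 0.05, lower to the left and higher to the right, for each comparison. The upper bar of each pair is for the 150 genes and the paler bar for all genes. Without pyruvate at 55 h the 150 genes are mostly lower (103 of 149), while all genes are more often higher (37.7%).

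At 78 h the 2 media differed from the standard in opposite ways. Without pyruvate, 36 of the 150 genes were lower and 10 higher than in standard morulae, with a median log2 difference of -0.26. Of all genes 6.63% were lower and 32.8% higher, with a median of 0.28. The counts were 58 lower and 5 higher with median-ratio scaling, 56 and 5 with quantile scaling, and 76 and 4 with the length trend removed. When only the compared groups were fitted, 17 were lower. Without lactate, 26 were higher and 3 lower (Actn2, Wars2 and Cbr2), with a median of 0.31. Of all genes 8.38% were higher and 3.42% lower, with a median of 0.10. These counts were 23 and 6, 21 and 4, and 17 and 9 under the same 3 settings. Both comparisons share the 6 standard morulae.

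The morula groups were uneven. Without morula 5 of the no pyruvate group, 23 genes were lower and 16 higher. Without lactate, 9 were lower without standard morula 1 and 14 without standard morulae 1 and 2, and 16 and 17 were higher without morulae 1 and 5 of the no lactate group. The 150 genes made up 2.08% to 4.69% of a library without pyruvate, 4.03% to 4.47% of one without lactate and 3.05% to 4.35% of a standard morula.

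Pdp2, the phosphatase that activates pyruvate dehydrogenase, had 1923, 780, 591, 577 and 491 CPM without pyruvate, against 3860, 1427, 2101, 2492, 2154 and 1209 CPM in standard morulae, and 1 of the 5 libraries overlapped the standard range. The log2 difference was -1.44 ± 0.30 (adjusted p = 0.00066). Pdp2 had 2838 to 4000 CPM without lactate. Wars2, the mitochondrial tryptophanyl-tRNA synthetase, had 41.2 to 60.2 CPM without pyruvate and 107 to 165 CPM in standard morulae (-1.35 ± 0.13, adjusted p = 7.0e-08). Ddx21, a nucleolar helicase, had 76.8 to 121 CPM without pyruvate and 126 to 212 CPM in standard morulae (-0.78 ± 0.14, adjusted p = 0.00012). Neither Wars2 nor Ddx21 overlapped between the groups, which the rule that named Wars2 required.

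Foxa1 was lower as well (-1.04 ± 0.30, adjusted p = 0.0084). Cad had 54.1 to 83.5 CPM without pyruvate and 67.5 to 111 CPM in standard morulae (-0.49 ± 0.14, adjusted p = 0.0097), and Impdh1 had 72.4 to 90.4 and 87.8 to 139 CPM (-0.45 ± 0.14, adjusted p = 0.011). The Cad and Impdh1 calls were lost when only the compared groups were fitted (adjusted p = 0.063 and 0.056), and with the length trend removed the differences were -0.80 and -0.83. Higher without pyruvate were Impact, with 2760, 1359, 1603, 513 and 375 CPM against 748, 281, 345, 313, 226 and 153 CPM (1.76 ± 0.39, adjusted p = 0.0013), and Inka1, with 17.0 to 107 against 6.78 to 19.01 CPM (1.79 ± 0.38, adjusted p = 0.00080). Libraries of both genes overlapped between the groups. Atp6v0a1, a subunit of the proton pump of vesicles, had 45.4 to 62.3 CPM without pyruvate and 23.3 to 39.8 CPM in standard morulae, without overlap (0.77 ± 0.14, adjusted p = 0.00025; 0.45 with the length trend removed). Of the 9 nucleotide genes 5 were lower and 0 higher, and they were not tested against the whole set, whose counts are given above. In the wider lists, 13 of 30 ribosome biogenesis genes were lower and 1 higher, 5 of 23 nucleotide synthesis genes were lower and 6 higher, and 2 of 15 tested genes of pyruvate and lactate handling were lower and 8 higher.

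Without lactate, Mixl1, a homeobox factor of mesendoderm, had 72.8, 49.96, 52.2, 45.8 and 40.0 CPM and the standard morulae 5.55, 7.83, 16.8, 14.3, 12.3 and 4.74 CPM. The groups did not overlap, and the log2 difference was 2.34 ± 0.43 (adjusted p = 0.0014). Ppp1r16b, a regulatory subunit of protein phosphatase 1, had 8.90 to 15.6 CPM without lactate and 1.23 to 3.29 CPM in standard morulae (1.98 ± 0.32, adjusted p = 0.00044). Arg1 had 49.6 to 73.0 CPM without lactate and 13.2 to 31.3 CPM in standard morulae (1.33 ± 0.29, adjusted p = 0.0045). Each of these stood clear of the standard range, which the rule that named Mixl1 and Ppp1r16b required.

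Igf2r without lactate was tightly grouped at 414 to 426 CPM, above the 113 to 299 CPM of standard morulae (1.22 ± 0.26, adjusted p = 0.0042). Acsl4 had 257 to 387 CPM without lactate and 106 to 261 CPM in standard morulae (1.03 ± 0.28, adjusted p = 0.017). Plbd1 had 200 to 251 CPM and 61.2 to 185 CPM (1.04 ± 0.21, adjusted p = 0.0023; 0.68 without standard morulae 1 and 2). Actn2, an alpha-actinin, was lower at 138 to 162 CPM, against 175 to 263 CPM (-0.55 ± 0.13, adjusted p = 0.0090). Acsl4 and Arg1, lower without pyruvate at 55 h, were thus higher without lactate at 78 h. At 78 h without pyruvate Arg1 had 4.42 to 21.9 CPM and was lower (-0.83 ± 0.29, adjusted p = 0.026), while Acsl4 had 58.2 to 199 CPM and a difference of -0.61 ± 0.28 (adjusted p = 0.082). The Arg1 call was lost without morula 5 of the no pyruvate group (-0.50, adjusted p = 0.100), and Acsl4 passed with each of the 3 other scalings (adjusted p = 0.010 to 0.039).

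With KY-PYR-9 added to medium without pyruvate, 105 of the 150 genes were lower and 6 higher than in morulae without pyruvate alone, with a median log2 difference of -1.05. This is near the background: 67.1% of all genes were lower and 8.61% higher, with a median of -0.90. The split depended on scaling, with 37 lower and 31 higher under median-ratio scaling, 46 and 16 under quantile scaling and 38 and 26 with the length trend removed. The 100 highest genes took 34.6% to 37.6% of a library with the inhibitor and 21.1% to 23.8% without it. Depth was 15.9 to 21.6 M reads with it and 34.0 to 38.0 M without it. The mitochondrial share was 2.94% to 7.47% against 0.235% to 2.09%. The slope on gene length was -0.165 to -0.138 against -0.0475 to 0.0502. The part of these differences between the libraries was not tested. There was no group that received the inhibitor in standard medium.

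Snf8 had 6.50, 6.61, 7.95 and 6.85 CPM with the inhibitor and 87.5, 69.6, 72.6, 54.2 and 39.8 CPM without it (-3.00 ± 0.18, adjusted p = 2.5e-11; -1.95 with quantile scaling). Entpd7 had 3.36 to 4.36 CPM with the inhibitor and 21.7 to 96.0 CPM without it (-3.13 ± 0.32, adjusted p = 3.0e-08). Sox15 had 576 to 653 CPM with the inhibitor and 1783, 1912, 2392, 739 and 887 CPM without it (-1.21 ± 0.25, adjusted p = 0.00024), and this call was lost with median-ratio scaling (-0.19, adjusted p = 0.55). Higher with the inhibitor were Impdh2, with 644, 568, 640 and 634 CPM against 307 to 409 CPM (0.82 ± 0.15, adjusted p = 5.5e-05), and Nipal1, a magnesium transporter, with 298 to 349 against 109 to 208 CPM (1.04 ± 0.19, adjusted p = 4.5e-05). Gulo had 465 to 635 CPM with the inhibitor and 202 to 419 CPM without it (0.89 ± 0.28, adjusted p = 0.0071). None of these 3 genes overlapped between the groups, which the rule that named Nipal1 and Gulo required. With median-ratio scaling the differences of the 3 genes were 1.83, 2.05 and 1.90. Impdh2-ps, Gm5745 and CR555305.2 were the other 3 genes that were higher.

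At 114 h the genes were low in standard medium by the rule. As a description, 117 of the 150 had a mean at least 2-fold above the standard blastocysts in blastocysts without pyruvate and 0 at least 2-fold below (on the CPM + 1 scale), with a median log2 ratio of 1.63. Among all genes 57.7% were above and 2.12% below by that fold, with a median of 1.15. In blastocysts without lactate 10 were above and 1 below, with a median of 0.15, and among all genes 2.01% and 3.19%, with a median of 0.06. The median gene stood at 3.89 CPM in standard blastocysts, 4.98 CPM without lactate and 19.3 CPM without pyruvate.

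The 2 altered media can be tested against each other, although blastocysts without lactate lay near the standard ones that the rule used. Of the 133 genes above the filter, 125 were higher without pyruvate than without lactate and 1 was lower (Gm5745), with a median log2 difference of 1.51. The other 17 were too low in these libraries to test. The filter of 1 CPM in 3 or more libraries can be met by the 5 libraries without pyruvate alone. The group mean was below 1 CPM for 18 genes of the set without pyruvate, 37 without lactate and 42 in standard blastocysts. Only 17 genes went untested, so some of the 37 below 1 CPM without lactate were tested, and the 125 include some of these. Such genes may have entered the test only through the group in which they were higher. The filter can act in the same way on all genes of the fit, and the part of this in the counts was not tested. The background was high here too, with 80.7% of all genes higher and 8.05% lower and a median of 1.11. The counts were 64 higher and 8 lower with median-ratio scaling, 54 and 6 with quantile scaling, and 57 and 10 with the length trend removed. The 100 highest genes took 23.2% to 25.2% of a library without pyruvate and 40.3% to 42.6% of one without lactate, and the part of this difference was not tested.

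Sox15 had 34.0 to 57.8 CPM without pyruvate, 7.08 to 9.70 CPM without lactate and 5.32 to 12.7 CPM in standard blastocysts. The log2 difference between the first 2 was 2.23 ± 0.22 (adjusted p = 4.7e-08; 1.05 with median-ratio scaling). Pdp2 had 358, 218, 291, 531 and 304 CPM without pyruvate and 92.7, 82.5, 72.5 and 121 CPM without lactate (1.84 ± 0.25, adjusted p = 1.6e-06; 0.60 with median-ratio scaling). Cramp1l, a homolog of the fly chromatin gene Cramped, had 49.2 to 91.2 CPM without pyruvate and 6.19 to 8.77 CPM without lactate (2.97 ± 0.19, adjusted p = 1.9e-09; 1.79 with the same scaling). Tcf7l2, a transcription factor of the Wnt pathway, had 26.8 to 74.4 and 4.82 to 6.16 CPM (2.68 ± 0.27, adjusted p = 5.9e-08; 1.52 with it), and Znrf3, a ligase that removes Wnt receptors, had 13.1 to 48.2 and 2.11 to 3.79 CPM (2.78 ± 0.28, adjusted p = 5.9e-08; 1.68 with it). No libraries of these 5 genes overlapped between the 2 media, which the rule that named Cramp1l and Znrf3 required.

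The same morula and blastocyst libraries give the change within each medium. The rule chose genes low in standard blastocysts, and blastocysts without lactate lay near those (median log2 ratio 0.15). The fall without lactate, and a smaller fall in the other medium, therefore follow in part from the choice of the genes. From morula to blastocyst, 138 of the 150 genes were lower without pyruvate and 0 higher, with a median log2 change of -2.18. All 150 were lower without lactate, with a median of -4.10. Of all genes 36.1% were lower and 34.8% higher without pyruvate, with a median of -0.02, and 54.4% were lower and 18.9% higher without lactate, with a median of -0.60. The difference between the 2 changes was tested as an interaction. For 134 genes the fall was smaller without pyruvate and for 2 (Impdh2 and Impdh2-ps) it was larger, with a median difference of 1.95. Of all genes 52.1% were positive and 12.6% negative, with a median of 0.70. The positive count was 110 with median-ratio scaling, 94 with quantile scaling and 105 with the length trend removed.

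Map7d2 had 51.2 to 440 CPM in morulae and 0.759 to 2.83 CPM in blastocysts without pyruvate (-6.18 ± 0.45, adjusted p = 9.4e-11), and the change without lactate was -7.15 ± 0.47 (adjusted p = 8.9e-12). Hand1 had 40.7 to 63.6 CPM in morulae and 0.395 to 0.844 CPM in blastocysts without pyruvate (-5.07 ± 0.17, adjusted p = 5.3e-16). Without lactate its change was -4.72 ± 0.18 (adjusted p = 1.1e-15), and the difference of the 2 changes did not pass the test (-0.35 ± 0.25, adjusted p = 0.21), although it did with the length trend removed (-0.79, adjusted p = 0.011). Fbxl20, an F-box protein, had 900 to 1433 CPM in morulae and 28.9 to 38.6 CPM in blastocysts without pyruvate (-5.19 ± 0.15, adjusted p = 6.7e-17), and changed by -6.28 ± 0.15 without lactate (adjusted p = 2.8e-18). The difference between its 2 changes was 1.08 ± 0.21 (adjusted p = 0.00016). It was lost with median-ratio scaling (0.15, adjusted p = 0.61) and turned negative without passing with quantile scaling (-0.16, adjusted p = 0.60) and with the length trend removed (-0.10, adjusted p = 0.76).

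Sox15 changed by -4.95 ± 0.23 without pyruvate and by -7.08 ± 0.25 without lactate, a difference of 2.13 ± 0.34 (adjusted p = 1.7e-05), which was lost with quantile scaling (0.79, adjusted p = 0.095). Pdp2 changed by -1.22 ± 0.28 and -5.23 ± 0.29, a difference of 4.01 ± 0.40 (adjusted p = 4.9e-08). Cramp1l had 129, 45.2, 25.6, 54.4 and 32.6 CPM in morulae without pyruvate and 49.2, 62.7, 67.0, 53.8 and 91.2 CPM in blastocysts. Its change of 0.38 ± 0.29 did not pass the test (adjusted p = 0.24; 0.72, adjusted p = 0.0044, without morula 1), while without lactate it was -3.62 ± 0.30 (adjusted p = 4.8e-10). Tcf7l2 changed by 0.59 ± 0.27 (adjusted p = 0.051) without pyruvate and by -3.39 ± 0.28 (adjusted p = 3.9e-10) without lactate. The differences between media were 3.99 ± 0.42 for Cramp1l (adjusted p = 8.3e-08) and 3.99 ± 0.39 for Tcf7l2 (adjusted p = 3.2e-08).

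Impdh2 fell from 307 to 409 CPM in morulae without pyruvate to 27.5 to 39.3 CPM in blastocysts, and from 246 to 282 CPM to 33.7 to 44.4 CPM without lactate. The fall without pyruvate was the larger by 0.50 ± 0.17 on the log2 scale (adjusted p = 0.013). The genes that did not pass the test without pyruvate included Zfp710, BC024978, Rpgrip1, Prrc2c, Znrf3, Cramp1l, Txnl4b, Slc24a5, Tcf7l2, Rdh13 and Caap1. By role, the fall was smaller without pyruvate for 16 of 17 ribosome and RNA genes, all 7 lipid genes, 14 of 16 signalling genes, 10 of 11 transcription factors and 6 of 9 cytoskeleton genes. Among the 30 ribosome biogenesis genes of the wider list, 19 fell and 2 rose without pyruvate, 29 fell and 0 rose without lactate, and the fall was smaller without pyruvate for 29. Of the 24 trophectoderm genes, which include Hand1, 19 rose and 2 fell without pyruvate and 14 rose and 8 fell without lactate.

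**Figure D5:**
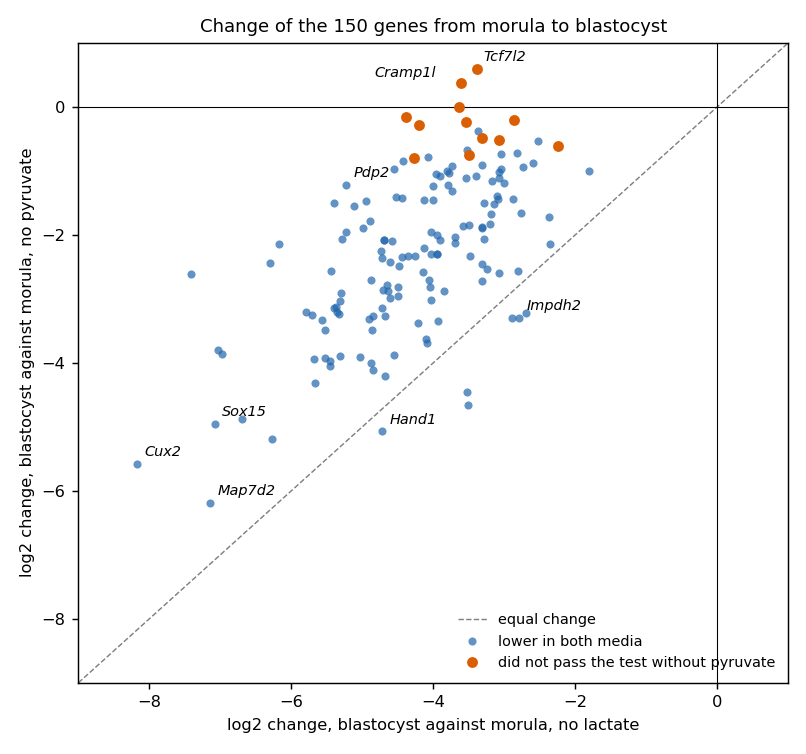
Log2 change from morula to blastocyst without pyruvate (vertical) against that without lactate (horizontal), 1 point for each of the 150 genes. The dashed line marks equal change. Points lie mostly above it, and the 12 orange points did not pass the test without pyruvate, while all 150 were lower without lactate.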

How the data were processed

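The authors deposited one table of CPM values (counts scaled to a fixed total) with a constant offset of 0.0001 for 37394 table entries in 91 columns. STAR 2.6.1d and the mm10 build are named in the submitters' processing notes. The counting tool and its strand setting are not given in the sources used here. Columns were matched to samples by their descriptions (85), and 6 that matched none were not used. Another 26 entries with numbers for names (0.0458% to 0.194% of a library) were left out. Tdh, which is none of the 150, has 1 missing value in a standard morula. Of low values 69.7% to 78.3% lay near whole reads, so reads were not recovered and no count test was run.

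The 150 genes and the gene lists were chosen with earlier results of these data known. Each test used limma 3.58.1 (R 4.3.3) on log2(CPM + 1), keeping genes that exceeded 1 CPM in 3 or more of the libraries fitted, with a trended prior and Benjamini-Hochberg adjustment over all genes at 0.05. Fits held the standard groups, those at 34 to 55 h, those at 78 h, those at 114 h, or the 4 morula and blastocyst groups of the interaction. Fold changes on this scale understate low genes. Genes named are the 25 highest by score, the 4 largest rises and falls without overlap in each comparison, members of the fixed lists and the genes at the rank limit. For genes named as the largest rises and falls, the lack of overlap was thus a condition and not a result. The share of all genes without overlap is not given. Tcf7l2, Txnl4b and genes given by name alone were named after their values were seen. The lists of cell type markers were blood, cumulus and sperm, and the sperm markers summed to at most 3.90 CPM in any library. Replicate numbers of the labels were not taken to pair samples. The alternatives tried were no filter, a pseudocount of 0.1, a replicate block, a fit of the compared groups alone, median-ratio and quantile scaling, removal of the length trend and leaving out libraries. On simulated data with 200 changed genes, 129 were recovered for the first comparison at 55 h. For the no pyruvate morulae 156 were recovered, and for the blastocysts 140. In the same order, 31, 56 and 40 of these were 2-fold changes, and 98, 100 and 100 were 4-fold changes. The false calls were 29, 8 and 13. The simulated counts had the same fixed spread for every gene and group, not the spread of these libraries. The recovered and false calls need therefore not hold for the real data. A shift of most genes was not tested there. Calculations and figures used Python 3.11.15, numpy 2.4.6, pandas 2.3.3 and matplotlib 3.10.9. Values of some genes are not reported here.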

Additional observations from a re-analysis of the deposited data

Results flagged for a closer look

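Within groups of 4 to 10 libraries, 1 library stood apart from the others (Dixon's 95% limit) in 10 of 136 groups tested, and chance gives about 1 in 20. The 150 genes made up 3.33% of library 1 of the 2-cell embryos without pyruvate at 55 h, against 2.03% to 2.19% in the other libraries, and 0.262% of library 3 of the blastocysts without lactate, against 0.307% to 0.316%. Sox15 had 499 CPM in the same 2-cell library without pyruvate, against 348 in each of the others. Entpd7 had 62.5 CPM in early 4-cell library 2, against 31.0 to 36.1. Impact had 748 CPM in standard morula 1, against 153 to 345. Pdp2 had 1923 CPM in morula 1 without pyruvate, against 491 to 780. Cramp1l had 129 CPM in that same morula library, against 25.6 to 54.4. Gulo had 619.6 CPM in early 16-cell library 4, against 748 to 789. Impdh2 had 568 CPM in library 2 of the morulae with the inhibitor, against 634 to 644. Fbxl20 had 38.6 CPM in blastocyst 1 without pyruvate, against 28.9 to 30.5.

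The change from morula to blastocyst differed between the medium without pyruvate and that without lactate, by a test of the interaction (limma). It was higher without pyruvate for 134 of the 150 genes, and for 52.1% of all genes. The choice of genes low in standard blastocysts, which those without lactate lay near, favours this direction. The difference was 2.13 for Sox15, 4.01 for Pdp2, 3.99 for Cramp1l, 3.99 for Tcf7l2, 1.08 for Fbxl20 and -0.50 for Impdh2, on the log2 scale. The Sox15 difference was lost with quantile scaling (0.79, adjusted p = 0.095) and that of Fbxl20 with each of the 3 other scalings.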

How the results depend on the processing

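Of the 13 comparisons, each kept its direction and a count within 1.5 times under all alternatives except these and the single libraries named with the morulae above. At 55 h against very late 2-cell embryos, the 42 lower genes were 27 with a pseudocount of 0.1. For morulae without pyruvate, the 36 lower genes were 17 when only the compared groups were fitted, 58 with median-ratio scaling, 56 with quantile scaling and 76 with the length trend removed. For morulae without lactate, the 26 higher genes were 17 with the length trend removed. With the inhibitor, the 105 lower genes were 37, 46 and 38 under the last 3 settings, and for blastocysts without pyruvate against those without lactate the 125 higher genes were 64, 54 and 57. These settings bring the median of all genes nearer to 0, which lies at 0.28, 0.10, -0.90 and 1.11 in the deposited scaling of the last 4 comparisons. Leaving out 1 library at a time, in the order of the bars in the plot of calls, the counts were 94 to 110, 33 to 51, 23 to 46, 16 to 32, 90 to 114, 125 to 127, 117 to 122, 64 to 72, 128 to 137, 81 to 91, 135 to 142, 150 to 150 and 129 to 135. Correlations of libraries with the same replicate number were -0.21 to 0.20. For morulae without pyruvate against standard morulae, 3 of 5 pairs were above 0.1. In some groups the column names carry other numbers than the labels, and a pairing by those was not checked. Whether samples were paired is therefore not settled. With the replicate number as a block the counts were 102, 42, 48, 23, 106, 127, 133, 74, 128, 87, 139, 150 and 134. Of 97 gene values, 84 kept their direction and side of the threshold everywhere and 7 lost it under some alternative. The direction turned, without passing the test, for Fbxl20 in the interaction (-0.16 with quantile scaling, -0.10 with the length trend removed) and for Impact at 55 h against early 4-cell embryos (-0.10 with median-ratio scaling, -0.21 with the length trend removed, and -0.081 to 0.22 leaving out 1 library at a time, the lowest without library 1 of the embryos without pyruvate). The lost calls were those of Fbxl20, Gulo, Cad, Impdh1, Sox15 (2 comparisons) and Arg1 given in the text. The ranking kept 144 of the 150 genes with a minimum of 10 CPM, 119 with 50 CPM and 108 with a pseudocount of 5. Depth limits genes near 1 CPM.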
